A study of Mus musculus with 365 samples.

Results

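The proteasome genes of early lymphoid progenitors from mouse bone marrow were described in single cells of 2 sorted populations, 213 TN cells and 152 Ly6D+ cells. They were all genes of the count table whose symbol starts with Psma, Psmb, Psmc, Psmd, Psme or Psmf, which gave 46 of 23427 genes, and no pseudogene met the rule. The 46 genes comprised 5 immunoproteasome genes (Psmb8, Psmb9, Psmb10, Psme1 and Psme2), 14 constitutive genes of the core particle, 17 of the regulatory particle and 10 others. The last set holds chaperones, further activators, an inhibitor and tissue-restricted forms. It also holds Psmc3ip and Psme3ip1, whose symbols fit the rule although their products are not proteasome subunits. The cells were EPLM, bone marrow progenitors that can still form lymphoid and myeloid cells, taken by sorting from the femurs of C57BL/6 mice. All mice carried the Flt3Ltg transgene, so every cell came from an animal with raised Flt3 ligand, and each label names a pool of 2 mice. No age is given, and no mice without the transgene were analysed here. A triple negative part (TN, 213 cells) was captured on chips 1, 2 and 3, and a Ly6D+ part (152 cells) on chips 4, 5 and 6. Ly6D is a surface protein of lymphoid progenitors with B cell potential.

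The chip was the replicate, with 3 per population. Which animals were loaded on a given chip is not in the labels, and p-values therefore reflect chip-to-chip spread that could be technical. A chip held 1 population, so a chip effect and a population effect cannot be told apart. Chips held 40 to 75 cells and 35734620 to 61415823 gene reads, and the shallowest cell had 267852 reads. The sort labels were checked against marker genes. Summed B-lineage markers stood at 1196 to 1311 CPM (read counts scaled to library size) on Ly6D+ chips and 5.70 to 276 CPM on TN chips. Summed myeloid markers had means of 99.3 CPM on Ly6D+ chips and 2369 CPM on TN chips, where Mpo made up 1824.1 CPM. Of these lists, only Pax5 and Csf1r had overlapping chips. Pax5 was highest on TN chip 2 (4.49 CPM) and had 0.10 to 3.28 CPM on Ly6D+ chips. Csf1r was highest on Ly6D+ chip 5 (133.9 CPM), against 107.3 to 133.6 CPM on TN chips. H2-Aa, a marker of dendritic features, had 408.4 CPM on chip 5. It had 75.3 and 80.96 CPM on chips 4 and 6 and 591.5 to 1341.1 CPM on TN chips. Cd3e of T cells, Hba-a1, Gata1 and Klf1 of erythroid cells and Ltf of neutrophils had 0 reads in all cells, which allows up to 0.822% of cells with a read (counting error only). Other genes of these lists had reads. Nkg7, Tcf7 and Gata3 of the T and NK cell list had means of 264, 188.8 and 80.2 CPM on TN chips. On Ly6D+ chips they had 374, 54.4 and 20.3 CPM. Hbb-bt of the erythroid list had 37.3 CPM on chip 1 and 0 to 7.45 CPM on the other chips. S100a8 and S100a9 of the neutrophil list had reads on chip 6 only, at 0.52 and 0.13 CPM.

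The proteasome is the protease that degrades proteins tagged with ubiquitin. Its barrel-shaped core is built of outer rings of alpha subunits and inner rings of beta subunits, of which the products of Psmb5, Psmb6 and Psmb7 cut peptide bonds. A regulatory particle of ATPases (Psmc genes) and non-ATPase subunits (Psmd genes) binds the tagged protein, removes the tag and feeds the chain into the core. In immune cells, and in other cells after interferon gamma, newly built cores take up Psmb8, Psmb9 and Psmb10 in place of Psmb5, Psmb6 and Psmb7. This form is the immunoproteasome. Together with the PA28 activator encoded by Psme1 and Psme2 it changes which peptides are made for display on MHC class I. Haematopoietic cells are known to carry immunoproteasome subunits without stimulation.

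The stretch of 120 bases before the start site is shown for Psmb8 and Psmb5, the catalytic pair whose levels differed most, and for Psmb9 and Psmb6, the pair whose ratio varied most between chips. Sequences are from RefSeq promoter windows (GRCm38.p6), 5′ to 3′ on the strand of the gene, and capitals mark a motif match.

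Psmb8, chr17:34198075-34198194, plus strand: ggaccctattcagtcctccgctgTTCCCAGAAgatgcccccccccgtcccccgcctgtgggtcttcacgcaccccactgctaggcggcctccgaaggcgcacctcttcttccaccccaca
Psmb5, chr14:54617996-54618115, minus strand: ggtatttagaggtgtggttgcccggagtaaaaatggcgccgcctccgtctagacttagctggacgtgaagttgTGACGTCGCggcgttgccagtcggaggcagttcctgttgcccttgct
Psmb9, chr17:34187331-34187450, minus strand: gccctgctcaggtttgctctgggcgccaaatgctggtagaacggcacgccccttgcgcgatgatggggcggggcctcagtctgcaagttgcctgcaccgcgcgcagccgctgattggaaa
Psmb6, chr11:70525237-70525356, plus strand: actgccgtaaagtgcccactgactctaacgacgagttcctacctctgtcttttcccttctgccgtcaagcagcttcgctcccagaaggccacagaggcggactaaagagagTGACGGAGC

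Whole windows of 300 bases (250 before to 50 after the start) of 39 of the 46 genes were searched on both strands. Psma8, Psmb1, Psmb2, Psmb7, Psmc3, Psmd3 and Psmd7 had no window in the search. It left out any proteasome gene window on a preset chromosome, which the shares over all genes kept. The motifs were the gamma-activated site TTCNNNGAA, the interferon-stimulated response element TTTCNNTTTC and the antioxidant response element TGACNNNGC. Of the 27025 genes with a RefSeq window, 9.55%, 3.99% and 13.99% held them. The gamma-activated letters were found in 2 of the 39 genes, at base -97 of Psmb8 (TTCCCAGAA) and in Psmd2. The interferon-stimulated letters were found in 4 of 39, at base 9 after the start of Psme1 (TTTCGCTTTC) and in Psmb3, Psmd4 and Psmd9. The antioxidant letters were found in 6 of 39, at base -47 of Psmb5 (TGACGTCGC), at base -9 of Psmb6 (TGACGGAGC) and in Psmc6, Psmd9, Psmd12 and Psme4, and in none of the 5 immunoproteasome genes. A match describes letters only. Psmb9 and Tap1, which encodes a subunit of the peptide transporter into the endoplasmic reticulum, start head to head with 225 bases between their start sites. Psmb8 starts 10864 bases from Psmb9, and Psme1 and Psme2 are neighbours on chromosome 14.

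Levels of different genes were compared per length, as RPKM, read counts scaled to library size and gene length, with the gene lengths the authors deposited. The core was led by the alpha subunits Psma7 (575 ± 169.1 RPKM, mean ± SD of 6 chips, also below) and Psma6 (545 ± 72.3) and by the beta subunit Psmb2 (535 ± 145.03 RPKM). The lowest alpha subunit was Psma5 with 140.7 ± 26.8 RPKM, and the lowest core gene was the catalytic Psmb5 with 97.1 ± 16.7 RPKM. Within the alpha ring, whose 7 subunits are each present in every ring, the highest level per length was 4.09 times the lowest. Annotation length and reads shared with pseudogenes enter such ratios. RefSeq lists pseudogenes of Psma5, Psmb5, Psmb6 and Psmb7, and the protein-coding Psme2b, a near copy of Psme2, and none of these is a row of the table. The sources used here do not say how reads of these genes were assigned, and their levels are uncertain.

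**Figure D1:**
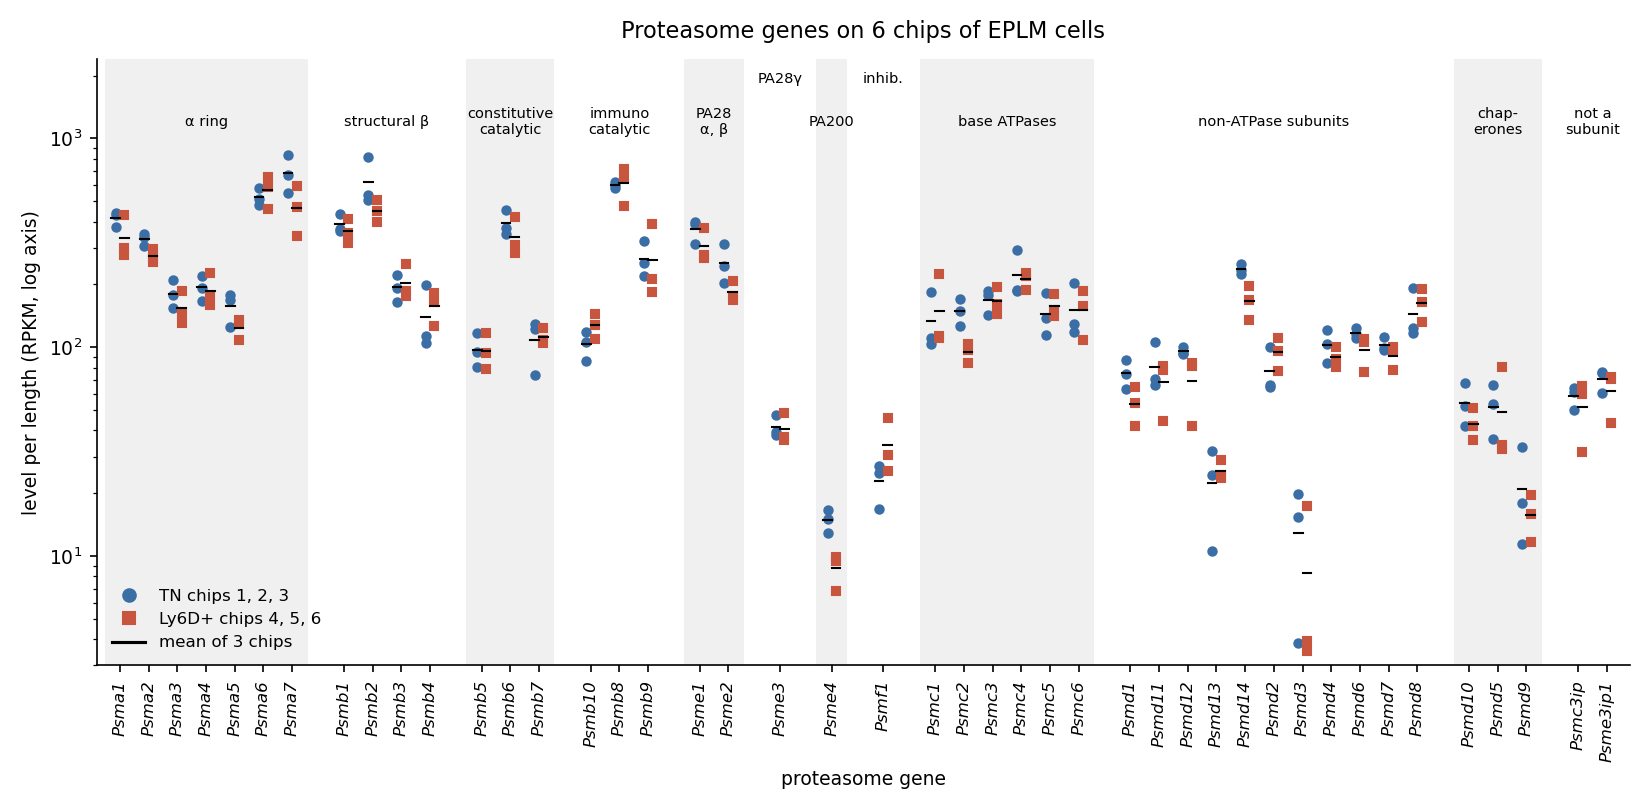
Level per length (RPKM, log axis) of the 44 proteasome genes with enough reads to be tested, grouped by role. Circles are the 3 TN chips, squares the 3 Ly6D+ chips and short lines their means; Psmb8 lies at the level of the highest core genes, while Psmd3 and Psme4 lie lowest.

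Psmb8, the chymotrypsin-like subunit of the immunoproteasome, had the highest mean level per length of the 46 genes, with 604 ± 78.4 RPKM, although its chips overlapped those of Psma7, Psma6 and Psmb2. Its level was 706, 730 and 755 CPM on the TN chips and 582, 871 and 789 CPM on the Ly6D+ chips. The Ly6D+ chips lay on both sides of the TN range. Its constitutive counterpart Psmb5 had 101.7, 70.01 and 83.2 CPM on TN chips and 68.9, 81.5 and 101.8 CPM on Ly6D+ chips, also overlapping. Per length, Psmb8 thus exceeded Psmb5 on all 6 chips. The ratio was 4.94, 7.43 and 6.46 on TN chips and 6.02, 7.60 and 5.52 on Ly6D+ chips. Its means were 6.28 ± 1.25 and 6.38 ± 1.09 (SD, n = 3 each), and the log2 ratio differed by 0.03 (exact two-sided permutation p = 0.9, adjusted over 3 pairs 0.9, the smallest p here being 0.1).

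The other pairs were nearer to balance. Psmb9, the immunoproteasome subunit that takes the place of the caspase-like Psmb6, had 176.8, 261 and 204.4 CPM on TN chips and 149.1, 313 and 171.1 CPM on Ly6D+ chips. Psmb6 itself had 473, 361 and 387 CPM on TN chips and 292, 321 and 435 CPM on Ly6D+ chips. Psmb9 was the lower of the pair per length on 5 of 6 chips, and chip 5 was the exception. The ratio of Psmb9 to Psmb6 was 0.48, 0.93 and 0.68 on TN chips and 0.66, 1.25 and 0.51 on Ly6D+ chips. The populations overlapped (difference in log2 ratio 0.15, exact permutation p = 0.7, adjusted 0.9).

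Psmb10 and Psmb7 encode the trypsin-like subunits. Psmb10 had 134.1, 109.1 and 150.2 CPM on TN chips and 182.8, 140 and 162.8 CPM on Ly6D+ chips, and the ranges overlapped on 1 chip of each population. Psmb7 had 118.6, 71.4 and 125.3 CPM on TN chips and 101.5, 105.3 and 120.5 CPM on Ly6D+ chips. The ratio per length was 0.86, 1.17 and 0.91 on TN chips and 1.37, 1.01 and 1.03 on Ly6D+ chips. It was above 1 on chip 2 and on all Ly6D+ chips. The difference in log2 ratio was 0.21 (exact permutation p = 0.4, adjusted 0.9). Over the 6 catalytic genes the inducible ones made up 61.8% ± 5.13 of the summed level per length in TN cells and 64.5% ± 5.29 in Ly6D+ cells (SD, n = 3 each). In chip sums, fewer cells with a transcript and less transcript per cell cannot be told apart.

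**Figure D2:**
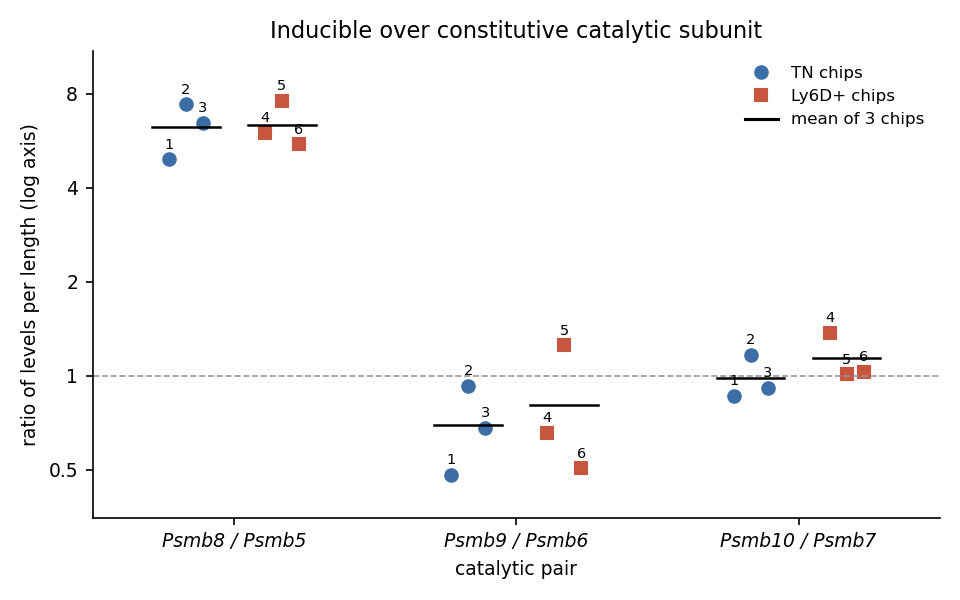
Ratio of the level per length of each inducible catalytic gene to its constitutive counterpart (log axis). Circles are TN chips, squares are Ly6D+ chips, digits are chip numbers, short lines are means of 3 chips and the dashed line marks equal levels. Psmb8 lies between 4.94 and 7.60 times Psmb5 on all chips. The ratios lie between 0.48 and 1.25 for Psmb9 to Psmb6 and between 0.86 and 1.37 for Psmb10 to Psmb7.

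Psme1 and Psme2 encode the alpha and beta subunits of PA28. Psme1 had 307, 381 and 391 CPM on TN chips and 270.3, 363 and 262 CPM on Ly6D+ chips. Psme2 had 199.3, 239.9 and 307 CPM on TN chips and 203.3, 172.1 and 163.97 CPM on Ly6D+ chips, so that only chip 4 reached into the TN range. Neither passed the test, with log2 fold changes of -0.27 ± 0.22 (SE) and -0.47 ± 0.25. PA28 gamma (Psme3), the nuclear relative that forms its own ring, stood at 41.1 ± 5.54 RPKM, well below Psme1 (337 ± 58.03) and Psme2 (219 ± 53.8 RPKM). PA200 (Psme4), a large single-chain nuclear activator, had 11.8 ± 3.69 RPKM. Psmf1, which encodes an inhibitor of the core, had 28.5 ± 9.66 RPKM.

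The median level per length was 301 RPKM for the alpha ring, 150.8 RPKM for the 6 ATPases of the regulatory particle and 85.8 RPKM for its 11 non-ATPase subunits. The ATPase genes lay close together, from Psmc2 (121.8 ± 33.2 RPKM) to Psmc4 (217 ± 41.4 RPKM). The non-ATPase genes covered a wider range, from Psmd3, a subunit of the lid (10.6 ± 7.67 RPKM), to Psmd14, the deubiquitinase that removes the ubiquitin chain (201.8 ± 44.2 RPKM). Psmd3 also varied most between chips, with 42.4, 32.9 and 8.22 CPM on TN chips and 37.4, 7.51 and 8.39 CPM on Ly6D+ chips. Chip 3 of TN and chip 4 of Ly6D+ each lay with the other population. Of the chaperones that help build the ATPase ring, Psmd5 had 50.6 ± 19.7 RPKM, Psmd10 48.6 ± 11.1 RPKM and Psmd9 18.3 ± 8.07 RPKM. Psmc3ip, a recombination factor, had 55.2 ± 12.8 RPKM and Psme3ip1 66.2 ± 12.5 RPKM. Of the tissue-restricted forms, the testis subunit Psma8 had reads in 3 cells, and the thymus subunit Psmb11 had 0 reads, which allows up to 0.822% of cells with a read.

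The question of the design, how Ly6D+ and TN cells differ, was asked of each gene with edgeR on reads summed per chip. Of the 46 genes, 44 had enough reads to be tested. None of them was called (0 of 44, Benjamini-Hochberg adjusted p over all genes under 0.05), while 0.203% of all 11797 genes were called. The lowest adjusted p of edgeR among proteasome genes was 0.437. At an unadjusted p under 0.05 there were 3 of 44 genes, all lower in Ly6D+ cells, against 8.38% of all genes. DESeq2 and limma also called 0 proteasome genes, of 45 and 44 tested, beside 561 of 14814 and 326 of 11797 genes. At an unadjusted p under 0.05 they had 3 and 1, where the share over all genes was not counted. By edgeR the median log2 fold change of the 44 genes was -0.17, beside 0.01 over all genes. Of the fitted values, 32 were below and 12 above 0.

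The spread of the chips was small enough to bound many of these differences. The 95% interval of the fold change lay wholly within 2-fold in either direction for 28 of 44 proteasome genes, against 13.5% of all genes tested. Levels were not matched in that comparison, so it does not set proteasome genes apart from other genes of their level. By role, the interval lay within 2-fold for 13 of 14 constitutive core genes (all but Psma7) and 4 of 5 immunoproteasome genes (all but Psme2). For the regulatory particle it did so for 9 of 17 genes. For Psmb8 the interval of the log2 fold change ran from -0.41 to 0.48 around 0.03, for Psmb9 from -0.78 to 0.74 around -0.02, and for Psmb10 from -0.28 to 0.89 around 0.30. Limma on chip means of log values gave 0.81 for Psmb10 and -0.05 for Psme2. These intervals are for single genes and rest on the spread between chips.

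**Figure D3:**
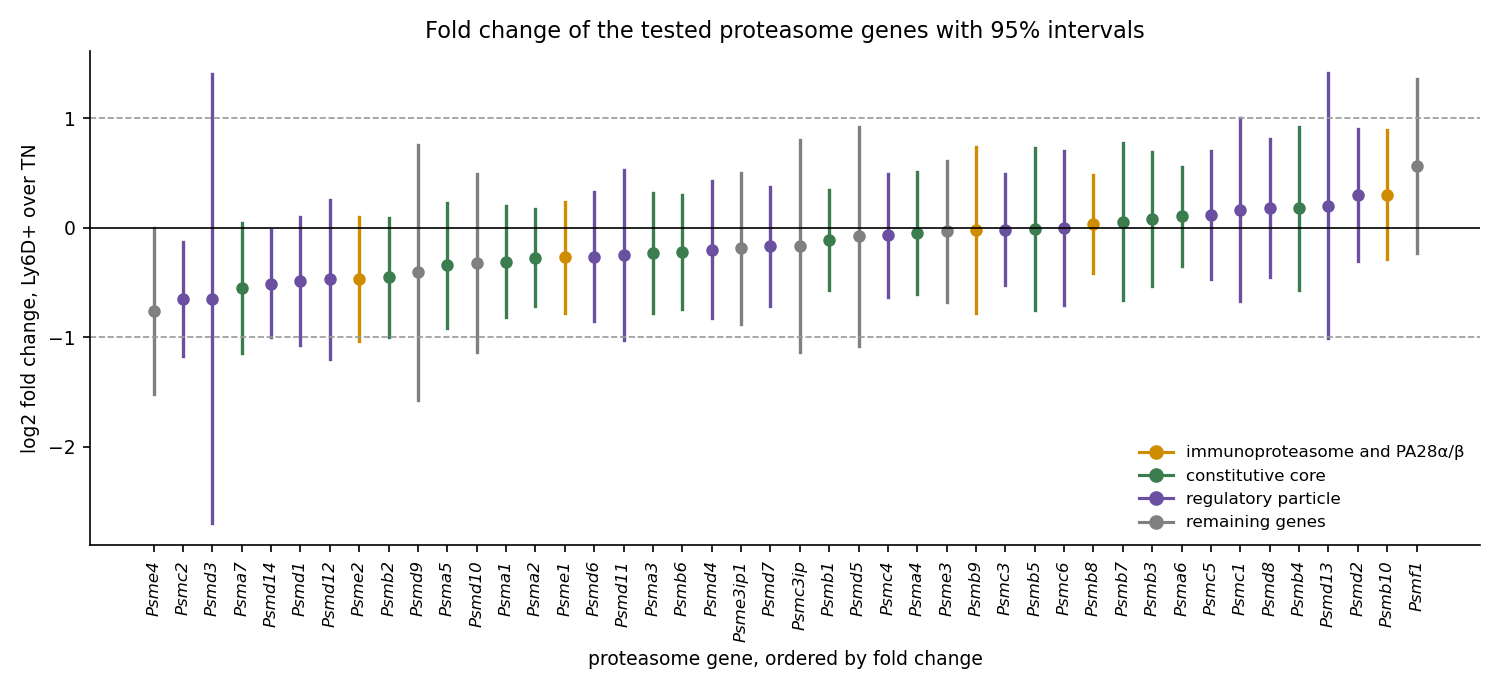
Log2 fold change of Ly6D+ over TN for the 44 tested proteasome genes, in order of size, with 95% intervals as lines. Dashed lines mark a doubling and a halving; no gene passed the test over all genes, and the intervals of Psme4, Psmc2 and Psmd14 end below 0.

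The genes with the lowest fitted values were Psme4, Psmc2, Psmd3, Psma7 and Psmd14. Psme4 had 106.7, 97.05 and 83.2 CPM on TN chips and 64.1, 43.8 and 61.4 CPM on Ly6D+ chips, a log2 fold change of -0.76 ± 0.33 (unadjusted p = 0.049, adjusted 0.595 by edgeR). All 3 Ly6D+ chips lay below all TN chips. Psmc2, an ATPase of the base, had 266, 226 and 303 CPM on TN chips and 184.8, 149.2 and 173.1 CPM on Ly6D+ chips (log2 fold change -0.65 ± 0.23, unadjusted p = 0.021, adjusted 0.437 by edgeR). Psmd14 had 363, 347 and 387 CPM on TN chips and 302, 259 and 208.1 CPM on Ly6D+ chips (log2 fold change -0.51 ± 0.21, unadjusted p = 0.042, adjusted 0.568 by edgeR). These groups did not overlap either. Psma7 had 587, 485 and 736 CPM on TN chips and 300.4, 412 and 519.9 CPM on Ly6D+ chips, so that chip 6 of Ly6D+ reached into the TN range (log2 fold change -0.55 ± 0.26).

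Chips of the populations stood apart for 6 of 44 genes, all with the Ly6D+ chips lower, against 15.4% of all genes in either direction. Besides Psme4, Psmc2 and Psmd14 they were the alpha subunit Psma2 (-0.27 ± 0.19) and the lid subunits Psmd6 (-0.26 ± 0.26) and Psmd12 (-0.47 ± 0.32), as log2 fold changes. The highest fitted values were those of Psmf1 (0.56 ± 0.35), Psmd2 (0.30 ± 0.26), Psmb10 (0.30 ± 0.26), Psmd13 (0.20 ± 0.53) and Psmb4 (0.18 ± 0.33). Psmf1 had 88.6, 96.1 and 59.6 CPM on TN chips and 162.7, 107.99 and 90.5 CPM on Ly6D+ chips. The value without chip 4, the highest of the Ly6D+ chips, was 0.29.

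Detection was counted in each cell after thinning to 200000 reads, with 5 or more reads (25 CPM) as the limit. In this count Psmb8 and Psme1 were each found in 91.1% of cells (mean of 6 chips), Psme2 in 83.6%, Psmb9 in 74.9% and Psmb10 in 56.7%. Their constitutive counterparts Psmb5, Psmb6 and Psmb7 were found in 49.5%, 86.6% and 57.2%. A TN cell held 3.94 ± 0.14 of 5 immunoproteasome genes and a Ly6D+ cell 4.01 ± 0.30 (SD over 3 chips). For the 14 constitutive core genes the numbers were 10.5 ± 0.33 and 10.5 ± 0.72, and for the 17 regulatory particle genes 9.09 ± 0.52 and 9.23 ± 0.93. All 5 immunoproteasome genes were detected together in 78 TN cells and 60 Ly6D+ cells, and none of them in 1 cell of each population. All 14 core genes were detected in 23 and 17 cells. A gene below the limit may still be expressed, and long or abundant transcripts reach it more readily.

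Detection of the catalytic pairs was also counted cell by cell. Both Psmb8 and Psmb5 were detected in 51.5% ± 8.22 of a TN chip's cells and 43.2% ± 5.90 of a Ly6D+ chip's (SD, n = 3 each), and Psmb8 without Psmb5 in 38.2% ± 7.15 and 49.4% ± 1.11. Psmb5 was found without Psmb8 in 8 cells, and neither in 26. Cells with Psmb8 alone made up 33.3% to 46.4% of TN chips and 48.1% to 50% of Ly6D+ chips. Shares of such pair classes were not tested, and no share over all genes stands beside them. The pair Psmb9 and Psmb6 leaned the other way, with 248 cells holding both, 26 Psmb9 alone, 67 Psmb6 alone and 24 neither. Psmb6 was found alone in 16.3% ± 3.49 of a TN chip's cells and 20.9% ± 0.85 of a Ly6D+ chip's. For Psmb9 alone the shares were 6.61% ± 1.82 and 7.39% ± 5.18. Both Psmb10 and Psmb7 were detected in 33.4% ± 2.48 of a TN chip's cells and 36.2% ± 6.85 of a Ly6D+ chip's, while 78 cells held Psmb10 alone, 83 Psmb7 alone and 79 neither. The shares of cells stood apart between the populations for 5 of 44 genes, against 16.5% of all genes. Psmd2, a ubiquitin-receptor scaffold of the base, was found in 54.7%, 52.2% and 62.3% of cells on TN chips and in 72.5%, 70% and 69.2% on Ly6D+ chips. Psma6 was also found in more Ly6D+ cells, and Psmd3, Psmd12 and Psmc3ip in fewer. For Psmd2 the fold change was 0.30 on the log2 scale from chip sums and 0.94 from limma on chip means of log values, which weight each cell equally, and it passed neither test (adjusted p of edgeR 0.837 and of limma 0.268).

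Spread between chips was set beside that of other genes. For genes with a mean of 50 CPM or more, the highest chip exceeded the lowest by a median factor of 1.67 over 41 proteasome genes, 1.58 over the 14 constitutive core genes and 1.67 over the 5 immunoproteasome genes. Over all 4604 genes above that limit the median was 2.37, with levels not matched. A list of 21 type I interferon response genes had a median factor of 15.7 over 17 genes. Their summed level was 969, 1106 and 3256 CPM on TN chips and 4208, 8210 and 1025 CPM on Ly6D+ chips. The immunoproteasome genes summed to 1523, 1721 and 1807 CPM on TN chips and 1388, 1858 and 1549 CPM on Ly6D+ chips. Chip 5, highest for the interferon list, was also highest for Psmb8 (871 CPM) and Psmb9 (313 CPM). Chip 4, second for the interferon list, was lowest for both (582 and 149.1 CPM) and highest for Psmb10 (182.8 CPM). The part of the interferon list in the proteasome levels was not tested.

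**Figure D4:**
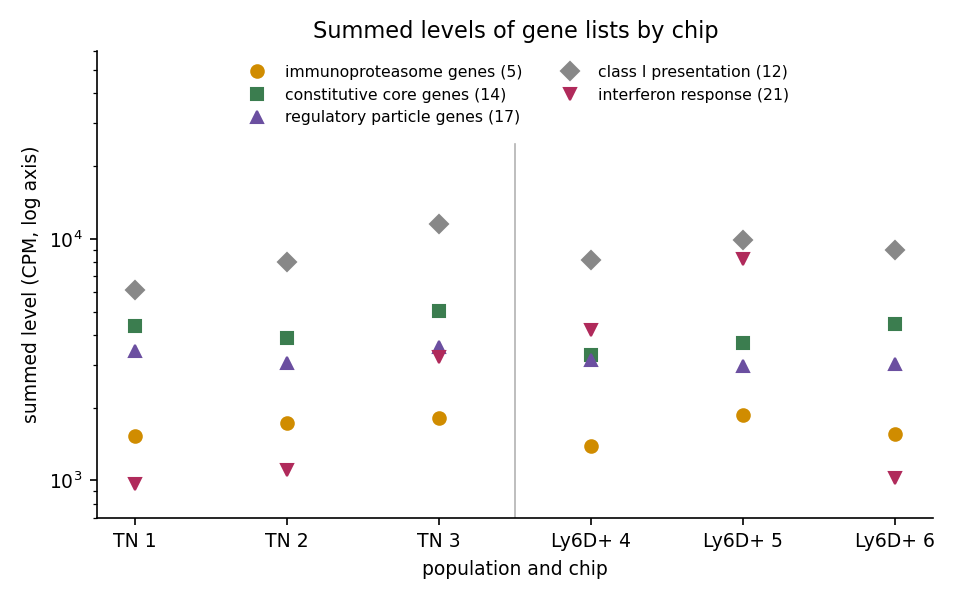
Summed level (CPM, log axis) of the gene lists on each chip, with the number of genes in brackets. The immunoproteasome sum ranges from 1388 to 1858 CPM, while the interferon sum ranges from 969 to 8210 CPM and is high on TN chip 3 and Ly6D+ chips 4 and 5.

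Genes that work with the proteasome were counted in the same fit. None of 21 genes of proteasome assembly and control was called by edgeR, against 0.203% of all genes. At an unadjusted p under 0.05 there was 1, against 8.38% of all genes. Of the 21 genes, 12 were fitted higher and 9 lower in Ly6D+ cells, with a median log2 fold change of 0.01. Pomp, the maturation factor on which new cores and above all immunoproteasomes are assembled, had 363, 276 and 402 CPM on TN chips and 226, 207.1 and 253 CPM on Ly6D+ chips. The chips did not overlap, and the log2 fold change was -0.60 ± 0.22 (unadjusted p = 0.027, adjusted 0.470 by edgeR). Of the 21 genes, chips stood apart for 1 higher and 2 lower in Ly6D+ cells, against 15.4% of all genes in either direction. The lowest fitted values were those of the assembly chaperones Psmg4 (-1.17 ± 0.67) and Psmg3 (-0.67 ± 0.45). The highest were those of Ecpas, a proteasome-binding protein (0.52 ± 0.46), and Ddi2, a protease that activates the factor Nfe2l1 (0.51 ± 0.53). Nfe2l1 itself, known to raise transcription of proteasome genes, stood at 46.7, 35.1 and 23.7 CPM on TN chips and 34.8, 41.2 and 31.4 CPM on Ly6D+ chips.

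Of 12 genes of class I presentation, edgeR called 0, with 6 fitted higher and 6 lower. At an unadjusted p under 0.05 there were 3 of 12, against 8.38% of all genes. Tap1, which starts beside Psmb9, had 126.3, 83.3 and 88.9 CPM on TN chips and 171.1, 226 and 133.1 CPM on Ly6D+ chips. These chips did not overlap (log2 fold change 0.83 ± 0.31, unadjusted p = 0.027, adjusted 0.469 by edgeR), whereas those of Psmb9 did. Of the 12 genes, chips stood apart for 1 higher and 1 lower in Ly6D+ cells, against 15.4% of all genes in either direction. Nlrc5, the activator of class I genes, had the highest fitted value (1.34 ± 0.54), followed by Tap2 (1.31 ± 0.92). The lowest were Pdia3, a disulfide isomerase of the peptide-loading complex (-0.82 ± 0.19, adjusted p = 0.198 by edgeR), and the chaperone Calr (-0.34 ± 0.27). Of the 21 interferon genes, edgeR called 0, with 2 at an unadjusted p under 0.05, against 8.38% of all genes. All 21 were fitted higher in Ly6D+ cells, beside 6005 of 11797 genes, led by Ifit3 (4.53 ± 2.07) and Ifit1 (3.72 ± 2.07). The chips of the populations stood apart for 0 of the 21 genes, against 15.4% of all genes. The summed level of the 21 genes on Ly6D+ chip 6 (1025 CPM) lay within the range of the TN chips (969 to 3256 CPM). Ifit1 had 406 CPM on chip 5 and 0 to 25.5 CPM on the other chips.

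Within a population, cells were split on the same chips by a marker gene outside the proteasome, and the classes were compared with chip as a block. The H2-Aa gene of MHC class II marks cells with dendritic features and was detected in 21, 21 and 15 cells of TN chips 1, 2 and 3. None of 44 proteasome genes was called between H2-Aa positive and negative cells, against 0.0429% of all genes, and edgeR gave 0 at an unadjusted p under 0.05, against 4.71% of all genes. The highest fitted value was that of Psmb9. It had 203.4, 507 and 325 CPM in H2-Aa positive cells and 162.9, 165.6 and 168.1 CPM in negative cells, higher on all 3 chips (log2 fold change 0.94 ± 0.42, unadjusted p = 0.058, adjusted 0.878 by edgeR). Without chip 2 the value was 0.65. Psme2, with 0.45 without chip 2, was higher on all 3 chips as well, with 253, 409.7 and 358 CPM against 176.1, 171.3 and 281 CPM (0.69 ± 0.38), and so was the constitutive Psmb6 (0.54 ± 0.28). Psmb8 was higher on chips 2 and 3 only, and Psmb10 on chip 1 only. H2-Aa positive cells had fewer detected genes per cell (2216, 1984 and 2028 against 2764, 2741 and 2558), and the median log2 fold change of all genes was -0.46. The part of that difference in these values was not tested.

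Mki67 marks dividing cells and was detected in 47, 41 and 41 cells of TN chips 1, 2 and 3. None of 44 proteasome genes was called by edgeR between Mki67 positive and negative TN cells, against 0.00852% of all genes. At an unadjusted p under 0.05 there were 2 of 44, against 5.81% of all genes, no more than the background. The 2 were Psmc1, an ATPase, with 183.4, 195.4 and 336 CPM in positive cells and 139.1, 89.01 and 174.7 CPM in negative cells, and Psmd1, a scaffold of the base, with 319, 289 and 244 CPM against 229, 172.8 and 143.96 CPM. Both were higher on all 3 chips (log2 fold changes 0.82 ± 0.32 and 0.66 ± 0.27). Mki67 positive TN cells had more detected genes (2828, 2787 and 2655 per cell against 2245, 2107 and 2133), whose part was not tested. In Ly6D+ cells the same split gave 0 of 44 called by edgeR, against 0 of 11470 genes, 0%, and 1 of 44 at an unadjusted p under 0.05, against 5.36% of all genes. Psmf1 had 190.4, 177.1 and 116.5 CPM in Mki67 positive Ly6D+ cells and 116.9, 55.4 and 62.6 CPM in negative cells, higher on all 3 chips (1.09 ± 0.46). Psme3 had 50.7, 20.9 and 99.9 CPM in positive and 144.7, 208.8 and 93.2 CPM in negative cells, lower on 2 of 3 chips (-1.57 ± 0.77, adjusted p = 0.974 by edgeR). Mki67 positive Ly6D+ cells also had more detected genes (2945, 2722 and 3013 per cell against 2710.3, 2235 and 2582), whose part was not tested. The difference of the Mki67 effect between the populations was tested as an interaction with edgeR. It passed for 0 of 44 proteasome genes, and 0 were at an unadjusted p under 0.05 (lowest 0.104). The share over all genes was not counted for this interaction, so these counts stand without a background.

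Ebf1, a transcription factor of B-lineage commitment, divided the Ly6D+ cells. None of 44 proteasome genes was called by edgeR, against 0.00876% of all genes. At an unadjusted p under 0.05 there was 1 of 44, against 4.3% of all genes, no more than the background. That gene was the chaperone Psmd5, with 33.8, 72.04 and 40.3 CPM in Ebf1 positive cells and 96.2, 217 and 87.7 CPM in negative cells, lower on all 3 chips (log2 fold change -1.39 ± 0.50, unadjusted p = 0.029, adjusted 1 by edgeR and 0.0748 by DESeq2). Psmb8 had 593, 1084 and 897 CPM in Ebf1 positive cells and 545, 729.6 and 683 CPM in negative cells, higher on all 3 chips with a log2 fold change of 0.38 ± 0.20 that did not pass.

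Mpo and Prtn3 encode granule proteins of myeloid cells, and TN cells with either were compared with the rest. No proteasome gene was called, against 0.00849% of all genes. At an unadjusted p under 0.05 there were 3 of 44, against 6.28% of all genes, a share near the background. The 3 were Psmd1 with means of 308 and 170.7 CPM, Psme3 with 170.4, 137.97 and 121.5 CPM against 76.96, 64.95 and 72.6 CPM, and Psmc1 with 211.5, 246 and 295 CPM against 120.7, 73.1 and 246 CPM. All were higher in the myeloid class on 3 of 3 chips, by log2 fold changes of 0.87 ± 0.29, 0.98 ± 0.38 and 0.93 ± 0.37. Without chip 2 the value of Psmc1 was 0.53. The classes of Psme3 did not overlap. Positive cells had more detected genes per cell (2921, 2923 and 2714 against 2292, 2194 and 2091), whose part in these values was not tested. None of the immunoproteasome genes was at an unadjusted p under 0.05 in any of the 5 splits.

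**Figure D5:**
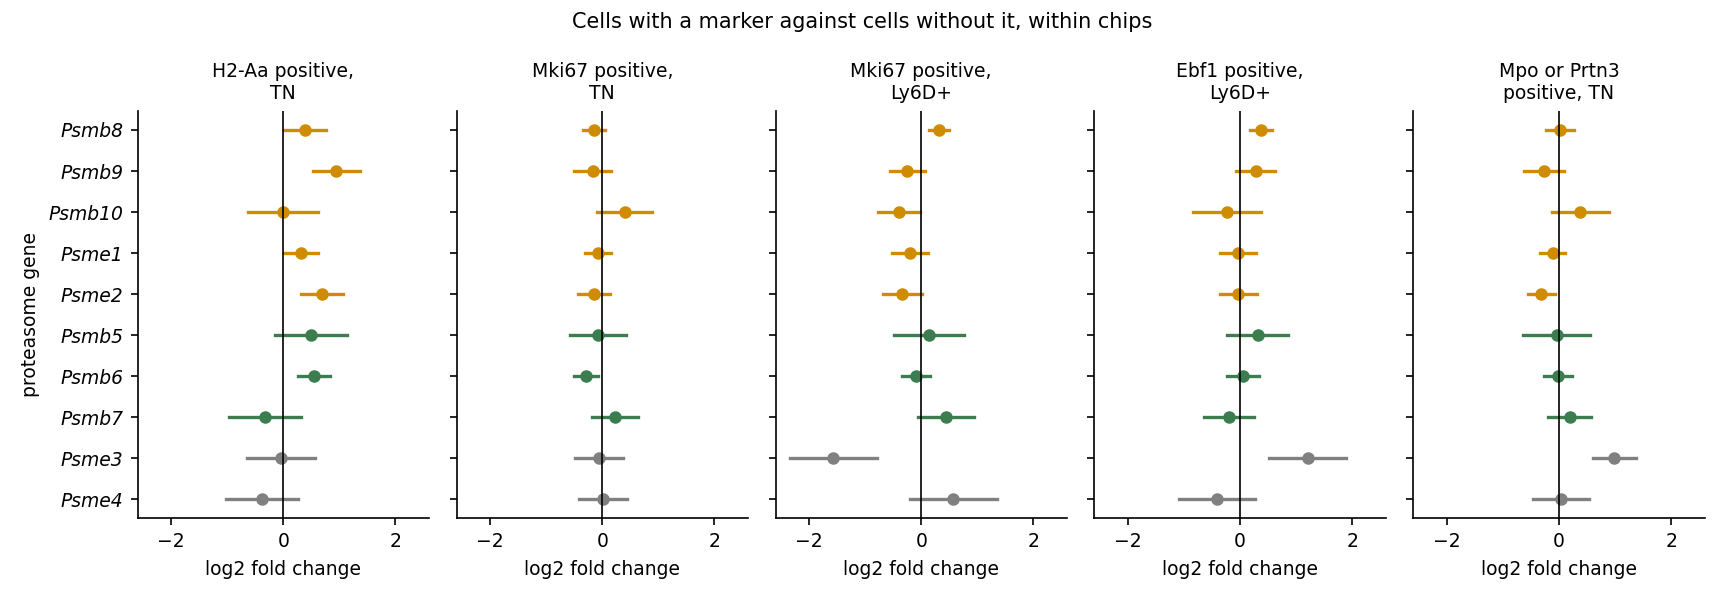
Log2 fold change of cells with a marker over cells without it, within chips, for the immunoproteasome genes, their constitutive counterparts, Psme3 and Psme4. Points are edgeR estimates and lines 1 SE; no gene passed the test, and Psmb9 in H2-Aa positive cells and Psme3 in myeloid cells lie furthest above 0 in units of their SE.

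Whether cells with more of one set of genes held more of another was described by Spearman's rho between thinned counts within each chip, without a test. Cells of a chip were prepared together, and the counts compared come from the same cells, which differ in their number of detected genes. Summed constitutive core genes correlated with summed regulatory particle genes at a mean rho of 0.24 ± 0.14 (SD over 6 chips) and with the number of detected genes at 0.29 ± 0.09. Immunoproteasome genes correlated with core genes at 0.19 ± 0.19, between -0.02 on chip 4 and 0.44 on chip 1. With the interferon list the immunoproteasome genes stood at 0.09 ± 0.19 and with class I genes at 0.05 ± 0.22, with both signs among the chips. All of these are weak. Over the 903 pairs of proteasome genes found in 20% or more of cells the median rho was 0.11, beside 0.06 over all pairs of such genes. It was 0.14 for core genes with one another and 0.11 for immunoproteasome genes with core genes. For the 10 pairs of immunoproteasome genes with one another it was also 0.11, between -0.03 and 0.26. Levels were not matched in these comparisons.

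Of 4553 genes, those most like the immunoproteasome sum across cells were Uqcr10, a subunit of respiratory complex III (mean rho 0.27), the nucleoside kinase Nme2 (0.24), the actin nucleator subunit Arpc4 (0.22), Crip1 (0.22), the antiviral membrane protein Ifitm3 (0.21), Romo1 (0.21), Ifitm2 (0.21) and Uqcc2 (0.21). The median over all genes was 0.02. Those most like the core sum were the peptidyl-prolyl isomerase Ppia (0.40), the respiratory chain gene Ndufa4 (0.40), AY074887 (0.39), cytochrome c (Cycs, 0.38) and the nucleolar protein Npm1 (0.36), beside a median of 0.08. Ppia and Npm1 were detected in 95.3% and 95.9% of cells.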

How the data were processed

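The authors deposited a table of raw read counts for each gene in each cell, with gene lengths; its columns sum to different totals and were used as they stood. Capture used the Fluidigm C1 system, with SMARTer cDNA and Nextera XT libraries, per the labels' protocols; reads, not molecules, were counted. The submitters' processing notes name mm9 and R 3.2.0. Aligner, counter, annotation and strand setting were not found in the sources used here, so overlapping or antisense genes cannot be told apart. Per the series' design text, cells with few mapped reads, counts or genes had been removed. The treatment of doublets is not stated there, and no caller was run. Symbols were taken by identifier from RefSeq (GRCm38.p6), which matched 23334 of 23427 genes.

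Reads were summed by chip and tested over all genes with edgeR 4.0.16 in R 4.3.3 (TMM, filterByExpr, quasi-likelihood F-test, Benjamini-Hochberg adjusted p under 0.05). The SE of a log2 fold change is its size over the root of its F value, and 95% intervals use the degrees of freedom of the fit. CPM are TMM-scaled. For the splits, cells with 5 or more of 200000 thinned reads of the marker were positive, and chip was a block. Pair ratios were compared by exact permutation over 6 chips. Python 3.11.15 was used elsewhere, and the model fits were tested on simulated data. There the population fit called 2% of genes with a 2-fold change and 15.5% of those with a 4-fold change. The H2-Aa split fit called 1% and 3.3%. Not being called thus does not by itself exclude such factors. Between the populations the 95% intervals bound them, and for 28 of 44 proteasome genes they lay within 2-fold. The 95% intervals held the true value for 95.6% of genes in the population fit and 96.8% in the H2-Aa split. Alternatives were RLE scaling, no filter, DESeq2 1.42.0, limma 3.58.1 on chip means of log2 CPM, leaving out each chip or cells under 1500 genes, no chip block, detection limits of 1 or 10 reads and Pearson correlation; the interaction of Mki67 with population was added after seeing the data.

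By rule, the immunoproteasome genes and counterparts were named, with any gene called, the 5 largest fitted changes in each direction, the extremes per length in each role, tissue-restricted forms, genes that are no subunit, and the nearest genes across cells. Of the other lists the rule named the 2 extremes in each direction. Further genes, such as those at an unadjusted p under 0.05 in a split, those whose chips stood apart, Pomp, Tap1 and Nfe2l1, were chosen after their values were seen. The members and all lists were chosen with earlier results of these data known.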

Additional observations from a re-analysis of the deposited data

How the results depend on the processing

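No proteasome gene was called in the 6 comparisons under any of the 46 alternative fits, and the lowest adjusted p was 0.0748 (Psmd5, Ebf1 split, DESeq2). Over all genes, DESeq2 called 561 and limma 326 between the populations, against 24 by edgeR, and 2 to 23 with a chip left out. DESeq2 called 755 genes in the H2-Aa split, 632 and 622 in the Mki67 splits of TN and Ly6D+ cells, 481 in the Ebf1 split and 638 in the myeloid split. The median log2 fold change of the proteasome genes between the populations ran from -0.22 without chip 5 to -0.01 with limma. Of 282 refitted fold changes of named genes 14 changed sign, none of them called. Leaving out 1 chip gave -0.10 to 0.19 for Psmb8, -0.43 to 0.18 for Psmb9, -0.19 to 0.14 for Psmb5, -0.16 to 0.19 for Psmb7, -0.19 to 0.075 for Psme3 and -0.14 to 0.55 for Psmd13. Limma gave -0.044 for Psmb4, -0.21 for Psme4 (against -0.76), 0.81 for Psmb10 (0.30), -0.05 for Psme2 (-0.47) and -0.42 for Psmc2 (-0.65). Over the alternatives Psmd3 ran from -1.81 to -0.21. The cause was not tested.

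Leaving out 1 chip moved the difference in log2 ratio between the populations from -0.13 to 0.16 for Psmb8 to Psmb5, from -0.22 to 0.43 for Psmb9 to Psmb6 and from 0.07 to 0.34 for Psmb10 to Psmb7. Immunoproteasome, core and regulatory genes detected per cell came to 4.27, 11.6 and 11.1 at 1 or more thinned reads and to 3.70, 9.60 and 7.98 at 10 or more. The relation of core genes with detected genes was 0.41 by Pearson correlation, against 0.29. No paired analysis was possible because no chip holds both populations; in the 5 splits, leaving out the replicate block called 0 proteasome genes. With 3 chips a side, the 95% interval reached 2-fold for 16 of 44 proteasome genes, which leaves a change of that size within their error.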
